A study of Mus musculus with 4 samples.

Results

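The cells described here are the aortic endothelial cells (EC) in which the summed signal of Slc26a4, Pla2g5 and Pcolce2 was highest, called panel-high EC below. They were chosen by measured values. Of 991 deposited single-cell profiles, 820 counted as EC because they had more than 1200 genes detected and a summed count of at least 3 over the endothelial genes Pecam1, Cdh5 and Vwf. Each EC was scored by the mean of ln(1 + counts per 10000 of its total) over the panel genes, and the 70 EC with the highest score were taken. These are 8.54% of the EC, and the other 750 EC served for comparison within each library. The levels of the panel genes themselves are therefore a description of the choice and not a result.

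The profiles came from 4 SORT-seq plate libraries of CD31+ CD45- TO-PRO-3- cells sorted from digested mouse aortas, dissected from the root to below the iliac artery with the adventitia removed. The libraries fall in 2 groups of 2. The Jag1 ECKO group carried Jag1 fl/fl with Cdh5-CreERT2/+, an endothelial promoter driving an inducible recombinase, and the Jag1 ECWT group carried Jag1 fl/fl with Cdh5+/+, so that the controls held the floxed allele and no Cre. The study's methods describe male C57BL/6J mice of 1.5 to 3 months that received tamoxifen at 2 mg per day on 5 days to activate Cre. The labels do not say how many aortas went into a library, so the spread between libraries behind the p-values may be technical. Values per library are always given in the order Jag1 ECKO 1, Jag1 ECKO 2, Jag1 ECWT 1 and Jag1 ECWT 2, where the numbers only name the libraries of a label and pair none of them.

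Before any comparison between labels, the targeted gene was checked in each library. Jag1 encodes a Notch ligand (GRCm38, chr2:137081456-137116644, minus strand). Over all EC it had 164, 70.8, 32.6 and 25.6 CPM (counts per 1000000 counts of the summed cells), from 161, 126, 28 and 38 counts. Both libraries labelled Jag1 ECKO were thus above both libraries labelled Jag1 ECWT, which goes against the labels, and "the library labelled" is meant wherever a genotype is named. A 3' count need not see a deleted exon, so the level does not check the deletion itself. The paper reports deletion of Jag1 in Jag1 ECKO mice from qRT-PCR of endothelial RNA and from en face staining. Those measures are separate from these libraries. The libraries held 903943 to 1850430 estimated counts over 165 to 281 cells, with a median of 4157 to 6522 counts per EC. Cell barcodes recur between libraries (118 to 216 shared by a pair), as plate barcodes are reused, and 0 pairs of columns with the same barcode were identical.

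The panel joins genes of different known roles. Slc26a4 encodes pendrin, a membrane exchanger of chloride, iodide and bicarbonate that is best known from thyroid, inner ear and kidney. Pla2g5 encodes a secreted phospholipase A2, an enzyme that frees fatty acids, arachidonic acid among them, from membrane phospholipids and so feeds prostaglandin and leukotriene synthesis. Pcolce2 encodes a procollagen C-proteinase enhancer, an extracellular protein that binds procollagen and promotes removal of its C-propeptide by Bmp1-type proteinases. The aortic endothelium is the cell layer facing the blood, and it holds subsets that differ in matrix, lipid-handling and signalling genes. The genes lie apart in the genome. Slc26a4 is at chr12:31519827-31559969 on the minus strand with 21 exons in its principal transcript, Pla2g5 is at chr4:138799244-138863482 on the minus strand with 6 exons, and Pcolce2 is at chr9:95637601-95698096 on the plus strand with 9 exons (GRCm38, GENCODE M21).

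Pcolce2 was the gene that all panel-high EC shared. It had a count in 70 of 70, Pla2g5 in 61 and Slc26a4 in 21. The combination of Pla2g5 and Pcolce2 made up 49 of the cells, Slc26a4 with Pcolce2 made up 9, and all 3 genes were found together in 12. A panel-high EC held a median of 4 Pcolce2 counts (1 to 26), 1.5 Pla2g5 counts (0 to 12) and 0 Slc26a4 counts (0 to 13). Most of these cells therefore carried no Slc26a4 count.

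Per library, Pcolce2 stood at 829, 505, 1074 and 719 CPM in panel-high EC and at 188, 149, 210 and 272 CPM in the other EC. Pla2g5 stood at 497, 269, 299 and 367 CPM against 67.1, 39.2, 35.9 and 73.3 CPM. Slc26a4 stood at 0, 163, 196 and 116 CPM against 15.99, 9.66, 5.32 and 7.88 CPM. The 8 panel-high EC of Jag1 ECKO 1 had 0 Slc26a4 counts among 42243 counts in all, where 3 counts is the limit that a count of 0 allows. The panel genes were not confined to the chosen cells, since 354 other EC had a Pcolce2 count, 151 a Pla2g5 count and 21 a Slc26a4 count. A further 106 EC had counts of at least 2 panel genes and were not chosen.

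The score ran without a gap through the limit of the choice. The panel-high EC scored from 1.0746 to 1.80 with a median of 1.23, and the other EC from 0 to 1.0740 with a median of 0.314. The 70th cell had 1 Pla2g5 and 2 Pcolce2 counts among 3566 counts. The 71st had 1 Pla2g5 and 5 Pcolce2 counts among 5967. Of the EC, 334 had no count of any panel gene.

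**Figure D1:**
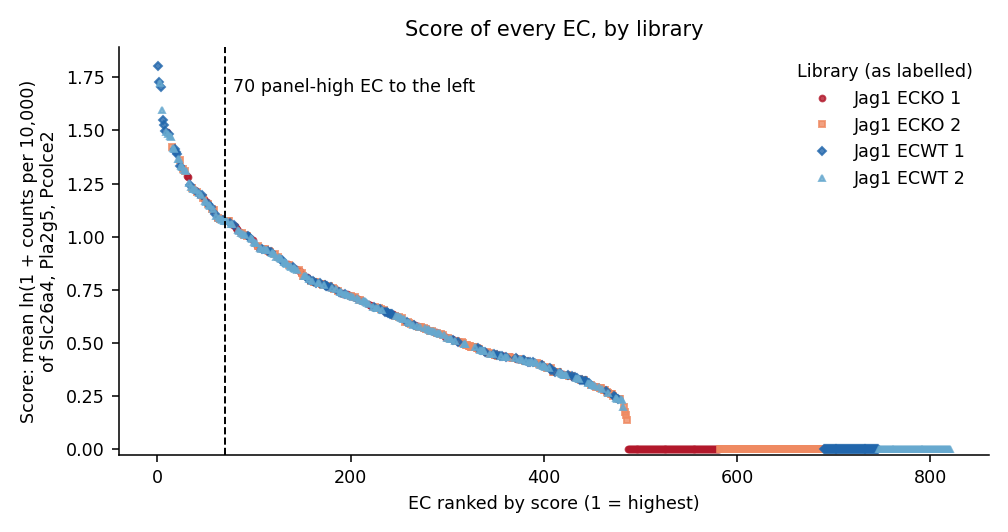
Score of each of the 820 EC against its rank, coloured by library, with a dashed line after the 70 highest. The curve is continuous at the line, where the score falls from 1.0746 to 1.0740, and the EC without panel counts lie at 0.

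The label of this subset implies that the panel genes mark the same cells, and this was checked by choosing 70 EC from 2 of the genes and reading the gene left out. Chosen by Pla2g5 and Pcolce2, the cells had Slc26a4 at 0, 0, 59.8 and 4.66 CPM, against 16.6, 21.2, 25.03 and 26.8 CPM in the remaining EC. These values rest on 0, 0, 6 and 1 counts. In both libraries at 0 the limit of 3 counts allows 40.3 and 36.4 CPM, above the remaining EC, so no order is read there, and Slc26a4 was not detectably higher except in Jag1 ECWT 1. Chosen by Slc26a4 and Pcolce2, they had Pla2g5 at 35.9, 148, 177 and 122 CPM against 88.7, 49.1, 52.3 and 115 CPM. Chosen by Slc26a4 and Pla2g5, they had Pcolce2 at 146, 317, 895 and 466 CPM against 221, 162, 260 and 318 CPM. Pcolce2 was therefore higher in 3 of 4 libraries and lower in Jag1 ECKO 1. Pla2g5 was higher in Jag1 ECKO 2 and Jag1 ECWT 1, close in Jag1 ECWT 2 (33.3% against 33.0% of cells with a count) and lower, from 2 counts, in Jag1 ECKO 1. These choices shared 53, 37 and 41 of the 70 panel-high EC.

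Detection of the genes together was also read with depth made equal. In the 788 EC with at least 2500 counts, each thinned to 2500, Pla2g5 was detected in 18.6% of the EC with Pcolce2 and in 12.5% of those without. The shares were nearly equal in Jag1 ECKO 1 (14.3% and 14.6%), and in the other libraries the former was higher. Slc26a4 was detected in 6.87% of the EC with Pcolce2 and in 1.21% of those without, with the former share higher in each library. Slc26a4 was detected in 2.59% of the EC with Pla2g5 (3 of 116) and in 3.42% of those without (23 of 672). The order turned in Jag1 ECWT 1, where 2 of 16 EC with Pla2g5 (12.5%) and 4.31% of those without had Slc26a4. These shares are a description over cells. Over all libraries Slc26a4 was more frequent in EC with Pcolce2 and not in EC with Pla2g5, so the chosen cells are not described as a single cell type.

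**Figure D2:**
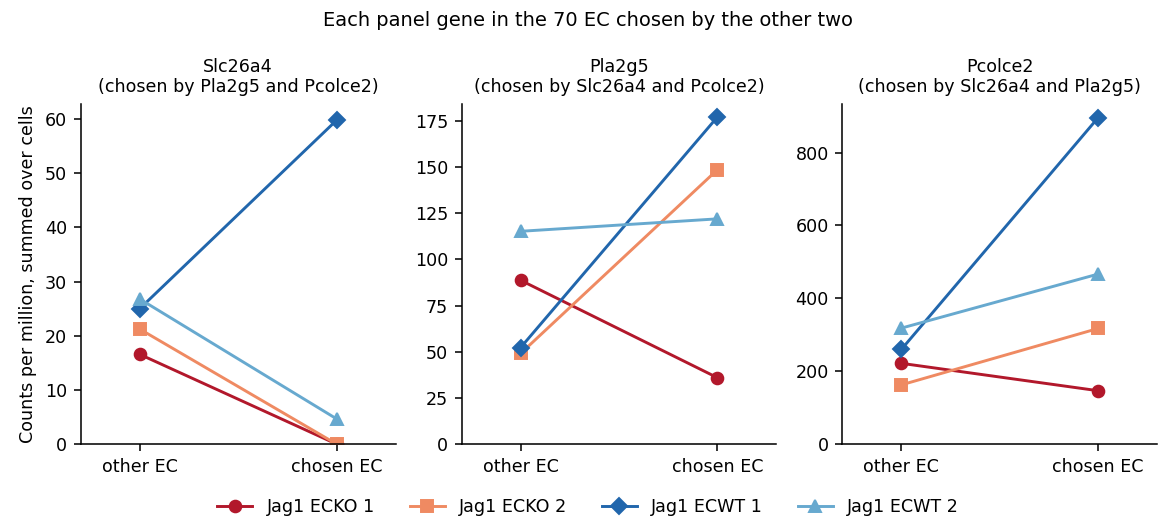
Summed CPM of each panel gene in 70 EC chosen by the other panel genes and in the remaining EC, with a line per library. Slc26a4 in the chosen cells rests on 0 to 6 counts a library and lies above the remaining EC only in Jag1 ECWT 1, Pcolce2 lies above them in all libraries but Jag1 ECKO 1, and Pla2g5 in Jag1 ECKO 2 and Jag1 ECWT 1, with Jag1 ECWT 2 close.

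The endothelial label was checked on markers that the choice of EC had not used, since Pecam1, Cdh5 and Vwf define the EC here. The other 13 EC markers of the list summed to 8901, 10041, 8075 and 9161 CPM in panel-high EC, against 8581, 7189, 8065 and 7407 CPM in the other EC, and only Robo4 among them was at 0. The sums were close in Jag1 ECKO 1 and Jag1 ECWT 1. The 10 fibroblast markers summed to 782 to 1364 CPM in panel-high EC and 1383 to 2449 CPM in the other EC, with Col1a1 and Dpt at 0. The 10 smooth muscle (VSMC) markers summed to 292 to 551 CPM against 424 to 1620 CPM, with Des at 0. They were lower in panel-high EC of 3 libraries and higher in Jag1 ECWT 1, at 551 against 424 CPM. The defining leukocyte gene Ptprc had 2 counts in 1 panel-high EC. Of the EC, 29 had more fibroblast and VSMC than EC marker counts, and 0 of these were panel-high EC, so all of them stood in the comparison group.

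Panel-high EC were taken from every library, but unevenly. They were 8 of 199 EC in Jag1 ECKO 1, 12 of 236 in Jag1 ECKO 2, 18 of 140 in Jag1 ECWT 1 and 32 of 245 in Jag1 ECWT 2. The shares were 4.02% (95% exact binomial interval 1.75 to 7.77), 5.08% (2.65 to 8.71), 12.9% (7.80 to 19.6) and 13.1% (9.11 to 17.9), where the intervals cover counting error only. The mean share was 4.55% in the libraries labelled Jag1 ECKO and 13.0% in those labelled Jag1 ECWT, a difference of -8.41 points, and the groups did not overlap. With 2 libraries against 2, the exact two-sided permutation p was 0.33, the smallest that the 6 possible assignments of labels can give, so the difference cannot pass a threshold of 0.05.

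The size of that difference depended on how the cells were chosen, and its sign did not. When the cells were chosen on EC thinned to 2500 counts, the shares were 6.99%, 6.41%, 10.6% and 11.9% and the difference was -4.54 points. Chosen by Slc26a4 and Pla2g5 alone, the shares were 8.04%, 5.51%, 10% and 11.02% and the difference was -3.74 points. The exact permutation p was 0.33 in each case. Since Jag1 goes against the labels, no direction by genotype is drawn from these shares.

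**Figure D3:**
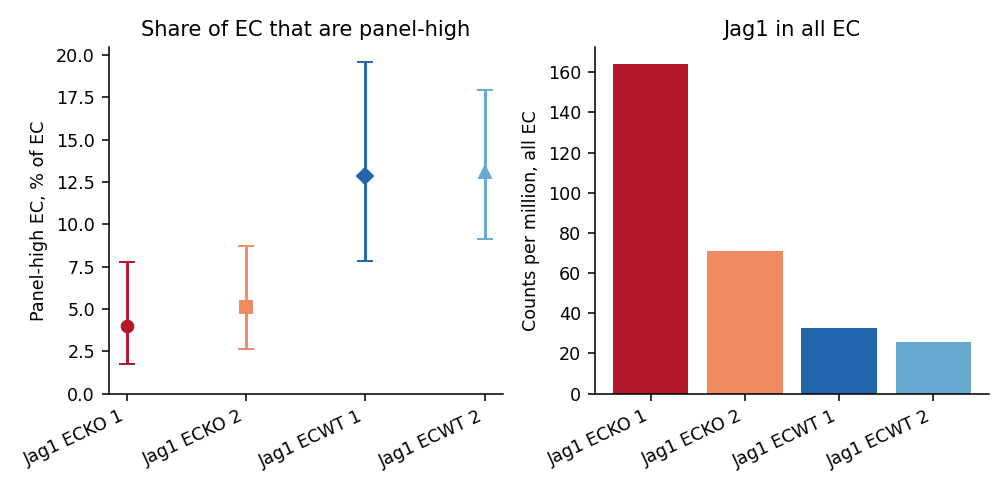
Left, percentage of EC that are panel-high EC in each library with 95% exact binomial intervals; right, Jag1 in all EC in CPM. The libraries labelled Jag1 ECKO have shares of 4.02% and 5.08% and the higher Jag1 levels, and those labelled Jag1 ECWT have shares of 12.9% and 13.1%.

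Panel-high EC were somewhat deeper than the other EC in 3 of 4 libraries. The median counts per cell were 5649, 8682, 5554 and 5737 in panel-high EC and 4095, 6486, 5580 and 5001 in the other EC. The medians of genes detected were 2042, 2781, 2193 and 2216 against 1761, 2388, 2264 and 2029. The exact sign-change p over the 4 differences was 0.25 for counts and for genes, where the 16 possible sign changes cannot give a p below 0.05. Values with every EC thinned to the same depth are given after the higher genes below.

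With the panel genes left out, panel-high EC differed from the other EC in 83 of 7868 genes tested (edgeR quasi-likelihood test on counts summed per library, library as a block, adjusted p below 0.05). Of these, 22 were higher (0.28% of genes tested) and 61 lower (0.775%). Among the higher genes were Sfrp1, Frzb, Cyp1b1, Nkx2-3 and Twist1, and among the lower genes Aqp1, Tcf4, Fabp4, Igfbp5 and Col8a1. Of the called genes, 20 of the 22 were higher and 48 of the 61 lower in all 4 libraries. The 4 panel-high sums lay above all 4 other sums for 16 of the higher genes, against 2.07% of all genes tested, and below them for 39 of the lower genes, against 3.5%. The genes were called from these same sums, so their lack of overlap is a description and no separate support. The median log2 difference over all genes tested was -0.04.

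Sfrp1, a secreted antagonist of Wnt signalling, was among the higher genes. Every panel-high EC had an Sfrp1 count, with a median of 17 counts per cell against 10 in the other EC. It stood at 3456, 3933, 3090 and 3402 CPM in panel-high EC and at 2061, 1915, 2042 and 2766 CPM in the other EC. The groups did not overlap, and the log2 difference was 0.59 ± 0.12 (SE, 4 libraries; adjusted p = 0.000545). Frzb, a related secreted Wnt antagonist, stood at 308, 749, 299 and 265 CPM against 182, 149, 93.1 and 189 CPM. Its log2 difference was 1.32 ± 0.19 (adjusted p = 1.01e-08), with Jag1 ECKO 2 far above the other libraries. Frzb and Sfrp1 were the called genes among 13 tested of a Wnt pathway list, where 0.28% of all genes were called higher, and the list's median log2 difference was 0.10. Other members were not called, such as Dkk3 at -0.77 ± 0.42 (adjusted p = 0.76) and Fzd8 at 0.39 ± 0.52 (adjusted p = 0.973).

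Cyp1b1, a cytochrome P450 enzyme that acts on steroids and fatty acids, had a count in 68 of 70 panel-high EC. It stood at 876, 1498, 1139 and 1054 CPM against 679, 563, 682 and 686 CPM, so that every panel-high sum was above every other sum. The log2 difference was 0.76 ± 0.14 (adjusted p = 3.59e-05). Slco2a1, a transporter that takes up prostaglandins, stood at 521, 480, 364 and 464 CPM against 264, 202, 306 and 313 CPM. Its log2 difference was 0.68 ± 0.17 (adjusted p = 0.0153), again without overlap. Slco2a1 passed in 7 of 21 alternatives and fell to 0.22 (adjusted p = 0.993) with cells chosen on EC thinned to 2500 counts. Fmo2, a flavin monooxygenase, was at 0.92 ± 0.22 (adjusted p = 0.0044) and rose most in Jag1 ECKO 2.

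Among transcription factors, the homeobox gene Nkx2-3 stood at 94.7, 163, 149 and 167 CPM in panel-high EC and at 39.4, 67.6, 62.5 and 63.8 CPM in the other EC. The rise was of like size in all libraries (log2 difference 1.25 ± 0.28, adjusted p = 0.00225). Twist1, a basic helix-loop-helix factor, stood at 687, 309, 345 and 274 CPM against 187, 110, 138 and 224 CPM (1.08 ± 0.20, adjusted p = 1.35e-05). Epas1, the hypoxia-inducible factor HIF-2 alpha, stood at 3125, 2875, 3389 and 3499 CPM against 2218, 1857, 2428 and 2239 CPM (0.49 ± 0.12, adjusted p = 0.0114). Each of these genes was without overlap between the groups.

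Ramp2, a receptor activity-modifying protein that forms the adrenomedullin receptor with Calcrl, stood at 1870, 1303, 1802 and 1740 CPM against 1210, 809, 1105 and 1140 CPM. The log2 difference was 0.58 ± 0.13 (adjusted p = 0.00246). Its partner Calcrl was at 0.57 ± 0.17 and did not pass the test (adjusted p = 0.0687). Vegfa, an endothelial growth factor, stood at 166, 65.1, 252 and 204 CPM against 95.9, 59.2, 114 and 84.3 CPM (0.90 ± 0.26, adjusted p = 0.0427), and its groups overlapped.

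The remaining higher genes chosen by the naming rule had log2 differences from 0.54 to 1.86. Metabolic enzymes and transporters among them were Glul (glutamine synthetase), Slc7a1 (a cationic amino acid transporter), St3gal5 (a ganglioside sialyltransferase) and G0s2 (an inhibitor of triglyceride lipase). Wnk4, a kinase that regulates ion cotransporters, was at 1.29 ± 0.31 (adjusted p = 0.0068), and Pde4b, a cyclic AMP phosphodiesterase, was at 0.94 ± 0.25 (adjusted p = 0.0262). Pced1a had the largest difference, 1.86 ± 0.49, from 29 counts in panel-high EC. G0s2 was at 1.47 ± 0.34 and stood at 280.1 CPM against 25.3 CPM in Jag1 ECWT 1, without which it was at 0.60 (adjusted p = 0.999). Kctd12, Serpinb6b and Nrep complete the list.

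Fewer of the higher genes passed without the library Jag1 ECKO 2. Without it the number of called genes fell to 22, 3 of them higher, and G0s2, Twist1 and Vegfa were those of the 20 named higher genes that still passed. The other 17 kept their sign, with adjusted p from 0.0643 to 0.996. The log2 differences themselves moved less, since 18 of the 20 stayed within 1.5 times their first value, Nkx2-3 at 1.27 and Epas1 at 0.47 among them. The exceptions were Frzb, which fell to 0.85, and Fmo2, which fell to 0.45. Twist1 was the higher named gene that passed with each library left out in turn. The count was 50 without Jag1 ECWT 1, 56 without Jag1 ECWT 2 and 77 without Jag1 ECKO 1. With every EC thinned to 2500 counts, 19 of 4100 genes were called, 3 of them higher, namely Frzb, Cyp1b1 and Ramp2. Of the 19 named higher genes that could be fitted, 16 kept a log2 difference within 1.5 times the first value, such as Nkx2-3 at 1.26 (adjusted p = 0.365) and Wnk4 at 1.29 (adjusted p = 0.376). The exceptions were Sfrp1 at 0.35 (adjusted p = 0.489), Nrep at 0.43 (adjusted p = 0.984) and Serpinb6b at 0.06 (adjusted p = 0.994).

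**Figure D4:**
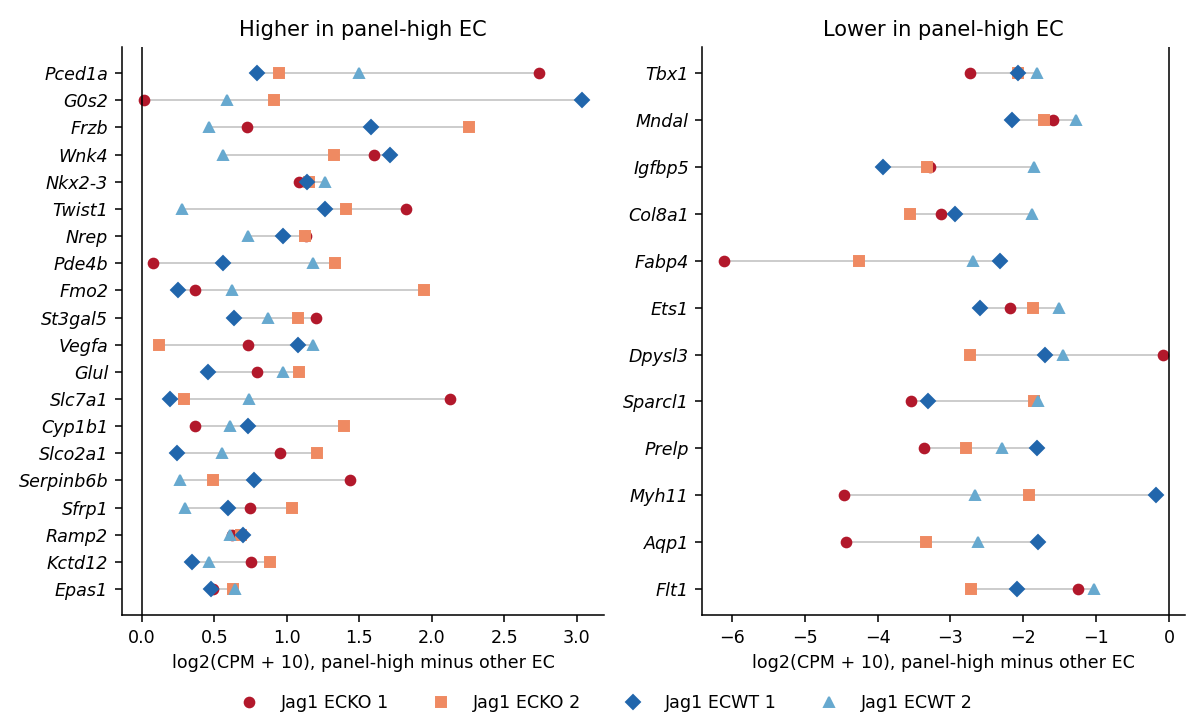
Difference in log2(CPM + 10) between panel-high EC and the other EC of the same library, a point per library, for the 20 higher and 12 lower genes of the naming rule. All points lie on the side of the call, with points near 0 for G0s2, Pde4b and Dpysl3 in Jag1 ECKO 1 and for Myh11 in Jag1 ECWT 1.

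The lowest adjusted p belonged to a lower level of Aqp1, the water channel of many capillary and venous endothelia. It had a count in 18.6% of panel-high EC and in 45.5% of the other EC. Aqp1 stood at 23.7, 40.7, 233 and 65.0 CPM against 717, 499, 832 and 452 CPM. The groups did not overlap, and the log2 difference was -2.74 ± 0.22 (adjusted p = 4.77e-31). Jag1 ECWT 1 held the highest level among the panel-high sums. Aqp1 is also a gene of another endothelial subset in these data, and 1 of the 70 EC with the highest score over Lyve1, Aqp1, Igfbp5 and Sema3d was a panel-high EC. This is 1.43%, where panel-high EC are 8.54% of all EC.

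Tcf4, a basic helix-loop-helix factor named here after its values were seen, had a count in 15.7% of panel-high EC and in 54.0% of the other EC. It stood at 23.7, 89.6, 28.0 and 46.4 CPM against 273, 286, 285 and 209 CPM (log2 difference -2.36 ± 0.29, adjusted p = 2.4e-13). Cdh13 (T-cadherin) at -1.49 ± 0.19 and Cp (the copper-binding ferroxidase ceruloplasmin) at -1.38 ± 0.18 were also chosen after their values were seen. Both still had counts in most panel-high EC, 57.1% for Cdh13 and 62.9% for Cp, so their lower levels were a matter of degree. Of the 12 named lower genes, Tbx1, Igfbp5, Col8a1, Fabp4, Sparcl1, Prelp, Myh11 and Aqp1 passed with each library left out in turn. The lower calls of Tcf4, Cdh13 and Cp passed in each of 21 alternatives, as did those of Aqp1, Fabp4, Col8a1 and Sparcl1.

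**Figure D5:**
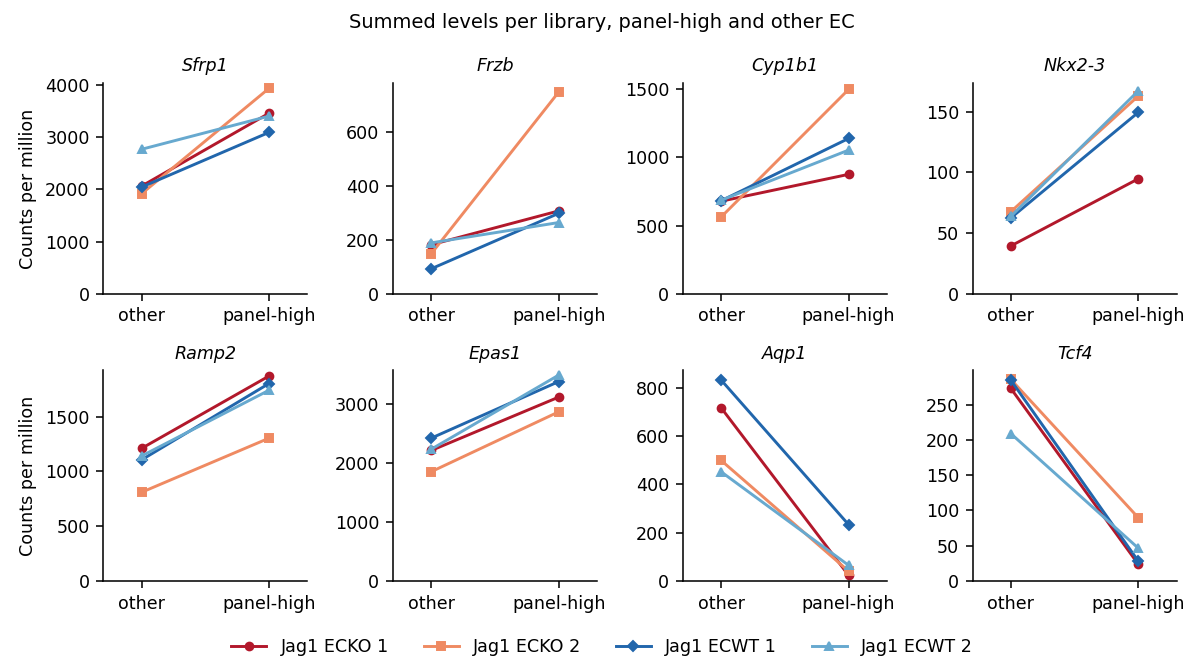
Summed CPM of 8 genes in the other EC and in panel-high EC, with a line per library. Sfrp1, Frzb, Cyp1b1, Nkx2-3, Ramp2 and Epas1 are higher and Aqp1 and Tcf4 lower in panel-high EC of all 4 libraries.

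The lipid-handling genes Fabp4 and Cd36 of capillary endothelium were lower. Most of the other EC lacked them as well, since Fabp4 had a count in 8.57% of panel-high EC and 16.9% of the other EC, and Cd36 in 1.43% and 7.2%. Fabp4, a fatty acid-binding protein, stood at 0, 0, 18.7 and 18.6 CPM in panel-high EC, from 6 counts, and at 677, 181, 133 and 175 CPM in the other EC (-4.17 ± 0.40, adjusted p = 1.09e-21). Cd36, a fatty acid scavenger receptor, had 1 count in panel-high EC and 362 in the other EC (adjusted p = 8.95e-07). These were the called genes among 7 tested of 18 listed, both lower (0.775% over all genes), with a list median of -2.14. With so few counts in panel-high EC, both genes passed the filter on low counts through the other EC. The list median is therefore partly set by that filter and is read no further. Among the rest of the list, Scarb1 was at -2.14 ± 0.70 (adjusted p = 0.136) and Sgk1 at -0.11 ± 0.22 (adjusted p = 0.992), while Plvap, a diaphragm protein of fenestrated endothelium, was at 0.08 ± 0.16 (adjusted p = 0.991) and had a count in 77.1% of panel-high EC and 62.0% of the other EC. Fabp4 had its highest single-cell count of 103 in the other EC, and no panel-high EC had more than 1.

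Other lower genes were growth factor and receptor genes. Igfbp5, an insulin-like growth factor-binding protein, had 3 counts in panel-high EC and 775 in the other EC, a ratio of 0.0366 per total count (95% exact interval 0.00754 to 0.107, counting error only; adjusted p = 2.4e-13). All 3 lay in Jag1 ECKO 2. Igfbp5 had a count in 4.29% of panel-high EC and in 12.7% of the other EC. A single cell among the other EC held 154 of the 775 counts, so the ratio leans on few cells. Igf2 stood at 94.7, 65.1, 168 and 74.3 CPM against 309, 176, 283 and 180 CPM (-1.25 ± 0.25, adjusted p = 0.00022). Of 22 tested genes in a list of IGF and growth factor genes, 6 were lower (0.775% over all genes) and 1, Vegfa, was higher (0.28% over all genes), with a median of -0.49. Flt1, a receptor for Vegfa, stood at 23.7, 0, 9.34 and 13.9 CPM against 70.3, 55.5, 71.8 and 38.6 CPM (-2.41 ± 0.59, adjusted p = 0.00682). It did not pass without Jag1 ECKO 2 (adjusted p = 0.261) or without Jag1 ECWT 1 (adjusted p = 0.141).

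Robo4, an endothelial guidance receptor, had 0 counts in panel-high EC and 133 counts in 72 of the other EC (adjusted p = 0.00606), and the call was lost without Jag1 ECKO 2 (adjusted p = 0.0684) and without Jag1 ECWT 1 (adjusted p = 0.188). Robo4 and Flt1 were the called genes among 30 tested junction and angiogenic receptor genes, both lower (0.775% over all genes), and the list's median was 0.01. The endothelial genes Pecam1 (0.28 ± 0.12, adjusted p = 0.466), Cdh5 (0.31 ± 0.17, adjusted p = 0.758) and Vwf (0.15 ± 0.13, adjusted p = 0.954) were not called, and their sum had been used to define EC.

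The transcription factor Tbx1 had 0 counts in panel-high EC and 162 in the other EC, where it stood at 56.5, 32.0, 31.9 and 25.2 CPM. Taken against a limit of 3 counts over all panel-high EC, it was at least 5.70-fold lower (adjusted p = 0.000874). Mndal, of an interferon-inducible family, was likewise at 0 against 101 counts and at least 3.56-fold lower (adjusted p = 0.0304). Ets1, a transcription factor of the endothelial and lymphoid lineages, had 1 count against 155, a ratio of 0.0611 (0.00154 to 0.345; adjusted p = 0.00524). Ets1 did not pass without Jag1 ECKO 2 (adjusted p = 0.0783) or without Jag1 ECWT 1 (adjusted p = 0.177), and Mndal did not pass without Jag1 ECKO 1, Jag1 ECWT 1 or Jag1 ECWT 2 (adjusted p = 0.0787 to 0.29) and was too low to be fitted without Jag1 ECKO 2. Each of these is a low gene, found in 10.7% to 15.5% of the other EC, so the depth of 70 cells limits what can be said of its level.

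Some genes of the matrix lists were lower, and none of their tested genes was called higher. Against 0.775% of all genes called lower, of 28 tested collagens and matrix glycoproteins 6 were lower (median -0.31), of 17 proteoglycan and hyaluronan genes 4 were lower (median -0.71), and of 14 elastic fibre genes 2 were lower (median -0.12). Log2 differences above 0 were found for 11, 7 and 6 genes of these lists. The lower genes include Col1a1 and Dcn, which are also fibroblast markers here. The 29 cells rich in fibroblast or VSMC markers all stood in the comparison group. The lists were not recounted without them, so their part in these counts was not tested. Col8a1, a short-chain collagen, had 2 counts against 378, a ratio of 0.0501 (0.00604 to 0.182; adjusted p = 1.6e-07). Sparcl1, a matricellular protein, had 3 counts against 331, a ratio of 0.0858 (0.0176 to 0.253; adjusted p = 8.33e-06). Prelp, a leucine-rich repeat proteoglycan, stood at 0, 16.3, 18.7 and 9.28 CPM against 92.7, 171, 90.4 and 84.3 CPM (-3.17 ± 0.47, adjusted p = 1.59e-08). Its highest single-cell count was 74, in the other EC.

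Dcn, the proteoglycan decorin, was lower in CPM, although 54.3% of panel-high EC and 43.1% of the other EC had a count. It stood at 355, 228, 355 and 394 CPM against 505, 1264, 1115 and 800 CPM (-1.54 ± 0.17, adjusted p = 1.96e-16). Thinned to 2500 counts, the shares were 38.2% and 33.1%, so the order of the shares went against that of the CPM and is read no further. A panel-high EC had a median of 1 Dcn count and at most 29, and the other EC a median of 0 and at most 582, so the order of the medians also went against that of the CPM. Dcn was not called with the 100 highest-scoring EC, or when the cells were chosen by Pla2g5 and Pcolce2 or by Slc26a4 and Pcolce2, and its log2 difference over the alternatives reached -0.27. Of the 70 EC with the highest score over Dcn, Sfrp2, Thbs1 and Gdf6, 8 (11.4%) were panel-high EC. That is close to the 8.54% of all EC that were panel-high EC. It was the largest overlap among 5 other panels, whose remaining overlaps were 1 or 2.

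The comparison group held the 29 cells rich in fibroblast or VSMC markers, so the calls were repeated without them. This alternative was chosen after seeing the data, and it left 54 called genes, 15 higher and 39 lower, 51 of them shared with the first fit. Smooth muscle genes were lost, among them Myh11, which stood at 0, 48.9, 0 and 9.28 CPM against 210, 214, 1.33 and 112 CPM in the first fit, and Acta2. The genes Dpysl3, Nrep, Vegfa, Glul, Slc7a1, Serpinb6b and Kctd12 were also lost, with adjusted p from 0.0584 to 0.884 over the lost named genes. The log2 difference of Myh11 went from -2.98 to -0.90, while those of the other 31 genes of the naming rule stayed within 1.5 times their first values. Aqp1, Tcf4, Fabp4, Igfbp5, Col8a1, Sparcl1, Prelp, Sfrp1, Frzb and Cyp1b1 passed without those cells as well. Dcn also passed, but its log2 difference went from -1.54 to -0.66 (adjusted p = 0.0294). Col1a1 no longer passed the filter on low counts and was not fitted.

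The lists made for the pathways of the panel genes themselves held no called gene. The called prostaglandin transporter Slco2a1 was in the venous list and not in these. Among 21 tested procollagen and matrix processing genes, the median log2 difference was -0.09. Pcolce, the paralogue of Pcolce2, stood at -0.15 ± 0.56 (adjusted p = 0.993) and Bmp1, the proteinase that such enhancers act on, at 0.22 ± 0.45 (adjusted p = 0.992). P4ha1, a collagen prolyl hydroxylase subunit, was at 0.92 ± 0.40 (adjusted p = 0.52). Among 17 tested phospholipase A2 and eicosanoid genes the median was 0.08, with Ptgs1 at 0.08 ± 0.18 (adjusted p = 0.992) and Ptgis, prostacyclin synthase, at 0.15 ± 0.19 (adjusted p = 0.969). Among 10 tested of 39 listed anion exchange and pH genes the median was -0.19, with Slc4a7 at -1.58 ± 0.67 (adjusted p = 0.467).

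Arterial and Notch genes were likewise without a call. The 21 tested arterial genes had a median of 0.00, and the 25 tested Notch pathway genes a median of 0.07. Gja5, an arterial connexin, was at 0.53 ± 0.22 (adjusted p = 0.452), Notch1 at 0.00 ± 0.20 (adjusted p = 0.999) and Notch4 at 0.07 ± 0.27 (adjusted p = 0.993). Jag1 had only 1, 3, 4 and 3 counts in panel-high EC, that is 23.7, 24.4, 37.3 and 13.9 CPM, and stood at 171, 74.3, 31.9 and 27.6 CPM in the other EC. Its log2 difference was -1.29 ± 0.46 and did not pass the test (adjusted p = 0.221). Jag1 was lower in panel-high EC of both libraries labelled Jag1 ECKO and of Jag1 ECWT 2.

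The venous, shear and immune lists are read against the 0.28% of all genes called higher and the 0.775% called lower. Of 12 tested venous genes Slco2a1 was higher (list median -0.36), and Nr2f2, a venous transcription factor, was at -2.24 ± 0.66 (adjusted p = 0.0612). Of 21 shear stress genes Cyp1b1 was higher and Klk10, Edn1 and Ctgf were lower (median 0.01), while Klf2 and Klf4 stood at 0.17 ± 0.17 (adjusted p = 0.954) and -0.34 ± 0.19 (adjusted p = 0.778). Ctgf, a matricellular growth factor, stood at 213, 16.3, 65.3 and 0 CPM against 177, 70.6, 53.2 and 136 CPM. It was thus lower in 2 libraries and higher in the other two, and did not pass without Jag1 ECWT 2 (log2 difference -0.39, adjusted p = 0.99) or without Jag1 ECKO 2 (adjusted p = 0.33). Klk10 and Edn1 each passed in only 1 of the 4 fits that leave out a library, with adjusted p up to 0.169 and 0.543. Of 32 antigen presentation and interferon genes Ly6a was lower (median -0.18), and its call was lost without Jag1 ECKO 2 (adjusted p = 0.491) and without Jag1 ECWT 1 (adjusted p = 0.243). Of 16 leukocyte adhesion and chemokine genes 0 were called (median -0.27). Vcam1, the leukocyte adhesion molecule, was at -0.63 ± 0.19 (adjusted p = 0.0648).

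Signs of dissociation and RNA quality were compared beside these. The 33 listed dissociation genes in the table summed to 5019, 2736, 2745 and 2553 CPM in panel-high EC and 5105, 3359, 3622 and 3167 CPM in the other EC. Fos and Jun were the called genes among 28 tested, both lower (0.775% over all genes; list median -0.48). With each library left out in turn, Fos passed only without Jag1 ECKO 1 (adjusted p up to 0.474) and Jun only without Jag1 ECWT 2 (adjusted p up to 0.755). The 13 mitochondrially encoded genes summed to 44860, 31620, 41665 and 45880 CPM against 50216, 33971, 44430 and 46816 CPM, with 0 called. The part of either in the gene differences was not tested.

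Panel-high EC also varied among themselves. The 21 cells with Slc26a4 counts and the 49 without came from different libraries in different numbers, so their values are given as a description. Frzb stood at 478 CPM in cells with Slc26a4 and 353 CPM in cells without, against 158 CPM in the other EC. Sfrp1 stood at 4042 and 3151 CPM against 2200 CPM, and Nkx2-3 at 165 and 151 CPM against 60.01 CPM. Vegfa stood at 91.1 CPM with Slc26a4 and 224 CPM without, against 82.5 CPM in the other EC. Aqp1 stood at 51.2 and 115 CPM against 585 CPM, and Tcf4 at 68.3 and 41.7 CPM against 262 CPM. Both kinds of panel-high EC thus lay on the same side of the other EC for these genes.

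Over all EC, the genes whose level followed the score most closely were found from the mean of the 4 within-library Pearson correlations, among 9030 genes, as a description over cells that share a library. The highest were Sfrp1 (0.41), Cyp1b1 (0.33), Smoc1 (0.32), Frzb (0.31), Fstl1 (0.31), Fbln2 (0.31), Sparc (0.30), Nkx2-3 (0.30), Calcrl (0.30) and Ramp2 (0.29). Of these, Smoc1 (0.34 ± 0.14, adjusted p = 0.465), Fstl1 (0.31 ± 0.13, adjusted p = 0.416), Fbln2 (0.45 ± 0.14, adjusted p = 0.0898), Sparc and Calcrl were not called between panel-high and other EC. The most negative were Tcf4 (-0.43), Aqp1 (-0.33) and Cdh13 (-0.27).

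Finally, panel-high EC were compared between labels. In 2158 genes tested over the 4 panel-high sums, 0 were called by edgeR and 92 had an unadjusted p below 0.05, while DESeq2 called 0 and had 13. The lowest adjusted p was 0.968. Frzb was at 1.06 ± 0.36 and Vegfa at -1.22 ± 0.49, libraries labelled Jag1 ECKO over those labelled Jag1 ECWT, both with an adjusted p of 0.968. Leaving out Jag1 ECKO 1 or Jag1 ECKO 2 gave 16 and 39 called genes, but each such fit holds 1 library of that label, takes the spread from the ECWT pair and assumes that the lone library varies like them, so these calls are read no further. The test of whether the label difference itself differed between panel-high and other EC called 0 of 7868 genes, with 301 at an unadjusted p below 0.05, and DESeq2 called 0 with 88. Each panel-high sum held 8 to 32 cells and 42243 to 215473 counts, against 752164 to 1656239 counts in the other EC.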

How the data were processed

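Single cells were sorted into plates and sequenced by SORT-seq, and the authors aligned reads with STAR to GRCm38 and analysed them with Seurat 3.1, per the submitters' processing notes. The authors deposited a table of estimated counts for 18767 genes in 991 cells, which are unique molecular identifier (UMI) numbers corrected for repeats among 4096 possible identifiers and so need not be whole. The deposited cells had passed the study's filters. Estimated counts were rounded to whole numbers per gene and cell and summed per library over the panel-high EC and over the other EC. Sums were tested with edgeR 4.0.16 (quasi-likelihood, TMM, filterByExpr, library as a block, Benjamini-Hochberg) in R 4.3.3, called at an adjusted p below 0.05. DESeq2 1.42.0 was an alternative. The fit was tested on simulated data. Library is the block because each library gives both sums. Shares and depths were tested by exact permutation in Python with numpy. CPM are rounded counts per 1000000 counts of the summed cells, and the plot of named genes adds a pseudocount of 10.

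Named genes were those called with the same sign in all 4 libraries and detected in at least 10% of the group where they were higher, up to 25 higher and 12 lower, plus called members of the gene lists, up to 4 examples a list, and defining markers. The panel-high EC, gene lists and tests were chosen with earlier results of these data known. A gene list is described by its counts and median, with no test. A low gene can pass the filter on low counts through either group alone, so a list median depends on that filter. Listed names absent from the table were looked up through RefSeq synonyms, and mitochondrial genes by their names without a hyphen. Genes are as the authors named them, and genes sharing reads with near copies were not resolved. No doublet caller was run. EC above 3 times the median count of their library were left out in an alternative. Thinning to 2500 counts used 68 panel-high and 720 other EC, leaving out 2 and 30 shallower cells. Alternatives changed the score, number of cells, filters, scaling and tool, and left out each library in turn. The sorting gate of CD31+ CD45- cells would remove leukocytes. Where genome coordinates are given, they come from GENCODE M21.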

Additional observations from a re-analysis of the deposited data

Results flagged for a closer look

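Of the 171 deposited cells that were not counted as EC, 7 had counts of at least 2 of the 3 panel genes, which is 4.09% (95% exact interval 1.66 to 8.25, counting error only) and above the 1.75% that a count of 0 would allow. A Pcolce2 count was found in 56 of these cells. They enter no comparison. Of 77 tested genes named in the text, 3 had a library whose log2(CPM + 10) difference between panel-high and other EC stood apart from the other 3 by Dixon's 95% critical value for 4 samples, which chance passes in about 1 of 20 groups. Acta2, smooth muscle actin, was at 0.46 in Jag1 ECWT 1 and lower than in the other EC in the remaining libraries. Klk10 was at -2.72 in Jag1 ECKO 1, where the other libraries were also below 0. Fstl1, which was not called, was at 0.60 in Jag1 ECKO 1 and at 0.31 to 0.35 in the others.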

How the results depend on the processing

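The number of genes called between panel-high and other EC was 83 and lay between 14 and 216 over the alternatives. It was 19 with EC thinned to 2500 counts, 53 with the 50 and 125 with the 100 highest-scoring EC, 55 with cells chosen on thinned EC, 216 against the 334 EC without panel counts, 43 without EC above 3 times their library's median, 54 without cells rich in fibroblast or VSMC markers (chosen after seeing the data) and 28 with DESeq2. Leaving out a library gave 22 to 77. Without the replicate block of library it was 14 of 6581 genes tested. Without scaling beyond the library total, 103 genes were called, 41.7% of them higher against 26.5%, and the median of all genes moved from -0.04 to 0.01. Of 47 called genes named in the text, Ctgf changed sign, to 0.017 with cells chosen by Pla2g5 and Pcolce2 and to 0.055 with cells chosen on thinned EC, and the others kept theirs wherever fitted. Over all 83 called genes, 4 changed sign in some alternative, Ctgf among them. Within panel-high EC, leaving out a library gave 0 to 39 called genes between labels, where each such fit has 1 library of a label that is assumed to vary like the pair of the other label, and the test of the label difference between panel-high and other EC called 0 throughout. The difference in shares kept its sign, from -3.74 to -8.96 points over the alternatives that share all EC or all deeper EC as denominator (-18.2 when the denominator held only panel-high EC and EC without panel counts), and leaving out a library gave -7.87 to -8.94. The difference in median counts per cell was 1115 on average, 754 to 1495 without a library. The cause of these changes was not tested. No paired analysis was possible between labels because GEO's labels give the libraries of a label no replicate numbers, and those used here follow the order of deposition. Depth limits the lower genes, which rest on 0 to 8 counts in many cases.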
